A study of Mus musculus with 10 samples.

Results

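Eph receptors and their membrane-bound ligands, the ephrins, were described in 10 mouse colon tumors by 9 genes taken by name from the 16875 gene names of the expression table: the receptors Ephb2, Ephb3, Ephb4, Epha1 and Epha2 and the ligands Efnb1, Efnb2, Efna1 and Efna4. All 9 were found and all 9 passed the filter on low values, a mean of at least 0.5 FPKM over the tumors. FPKM, the number of sequenced fragments scaled to transcript length and to the size of the library, is a level per length, so that levels of different genes can be set side by side. The table held 4 further genes of the family, Ephb6, Epha4, Epha7 and Efna3, which are given beside the 9. Epha3, Epha5, Epha6, Epha8, Epha10, Ephb1, Efna2, Efna5 and Efnb3 had no row of that name in the table, so their levels were not analysed here.

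The tumors had been induced on a C57BL/6 background by azoxymethane (AOM, a colon carcinogen) and, from 7 days later, 3 cycles of 5 days of dextran sulfate sodium (DSS, which injures the colon epithelium, 2% in the drinking water), and were collected 120 days after AOM. All animals carried 2 floxed alleles of Wls, the gene of Wntless, which cells need to release Wnt ligands. The 5 control tumors (Wls flox/flox) kept Wls. Their sample titles read Wls WT, and the RNA methods of the study call this group wild type. The 5 Villin-WlscKO tumors (Villin-Cre ERT2, Wls flox/flox) had lost it in the epithelium after 5 daily injections of tamoxifen at 80 mg/kg, the first 30 days before collection. The study describes its control tumors as given no tamoxifen except where it says otherwise. By its methods animals were 6 to 10 weeks old at the start and mostly female. The Villin promoter limits the recombinase to intestinal epithelium, whereas the RNA came from macrodissected whole tumors, so that stroma, vessels and leukocytes were measured too and fewer cells of a type cannot be told apart from less RNA per cell. How many mice gave the tumors is not stated, and n counts tumors throughout. The p-values therefore measure only the spread between these tumors.

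Wls itself was lower in every Villin-WlscKO tumor, at 72.9 ± 7.06 FPKM (SD, n = 5) in control and 6.37 ± 4.89 (SD, n = 5) in Villin-WlscKO tumors (log2 change -3.59, adjusted p = 0.000337). Epithelium was present in all 10 tumors, with Epcam between 911 and 1321 FPKM. The 9 pan-epithelial genes summed to between 6537 and 9214 FPKM in control and between 7982 and 10059 in Villin-WlscKO tumors. Their median log2 change was 0.20, with 0 higher and 0 lower at an adjusted p under 0.05. The part of epithelial content in the values of the family was not tested. Xist, the RNA that coats the silenced X chromosome in females, was at most 0.420 FPKM in control and at least 439 in Villin-WlscKO tumors. The groups thus differed in sex as well as genotype and tamoxifen, and the 3 cannot be told apart in any difference below. Villin-WlscKO tumors 2 and 3 stood apart from the other 8 by keratins of stratified squamous epithelium: Krt5 was at 469.5 and 669 FPKM there and at most 0.315 elsewhere. The same tumors also had more Wls left, at 11.6 and 11.7 FPKM, against 2.81, 3.61 and 2.03 in Villin-WlscKO tumors 1, 4 and 5. Values without that pair are given for Ephb6 and for family genes whose call or sign changed. The other family genes kept both, though sizes moved, as for Efna3 (-0.47) and Epha7 (-0.58). For the partner, Wnt and differentiation lists, counts without that pair are given where they changed. The lists of other cells were not counted again without it.

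Eph receptors are receptor tyrosine kinases that are activated where cells touch, since ephrins stay on the membrane of the neighbouring cell, and signals run into both cells. EphB receptors mostly bind ephrin-B proteins, which span the membrane and signal through their own tails, and EphA receptors mostly bind ephrin-A proteins, which are held by a lipid anchor. In the intestine EphB2 and EphB3 are known products of Wnt/β-catenin target genes of the crypt base, and ephrin-B1 and ephrin-B2 are produced higher up, where differentiating cells reside. The repulsion between both zones keeps cells sorted along the crypt axis. EphB4 and ephrin-B2 are also known from the vessel wall, of veins and of arteries.

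The genes lie on several chromosomes of the mouse genome (GRCm38, GENCODE M21). Ephb2 lies on chromosome 4 from 136647539 to 136835988 on the minus strand, Ephb3 on chromosome 16 from 21204755 to 21223305 on the plus strand, and Ephb4 on chromosome 5 from 137350109 to 137378669 on the plus strand. Epha1 lies on chromosome 6 from 42358487 to 42373268 on the minus strand and Epha2 on chromosome 4 from 141301240 to 141329384 on the plus strand. Efnb1 is on chromosome X, from 99136130 to 99148991 on the plus strand, and Efnb2 on chromosome 8, from 8617434 to 8661242 on the minus strand. Efna1 (89271733 to 89281142) and Efna4 (89333390 to 89338028) lie on the minus strand of chromosome 3, with Efna3 between them, and the 3 genes span 66296 bases. Ephb6 lies on the plus strand of chromosome 6 from 41605482 to 41620509.

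Some of these rows cannot be read as 1 gene. The 10 values of Efnb2 were identical to those of Arglu1, a neighbour on the same strand that ends 3832 bases before Efnb2 starts, and of Mir7654 inside Arglu1, so that the row is a joint value of all of them. The Ephb3 row is doubtful as well. It was checked against the study's list of genes that were down or up after epithelial Wnt secretion was blocked. For 1116 of 1140 names with a single locus in the gene list that accompanies the study, the mean of the 5 control values equalled the control value listed for that locus within 1% or 0.01 FPKM, and Ephb3 was among the 24 for which it did not. The row may therefore hold another stretch than the whole Ephb3 gene, and which one is not known. No other gene of the family was among the 1140 names, so the other family rows could not be checked in this way. Ephb4 overlaps Zan, on the opposite strand, by 33 bases, and Zan was at or below 3.00 FPKM in all tumors. Epha1 overlaps Zyx, also on the opposite strand, by 1727 bases, and Zyx lay between 24.3 and 36.3 FPKM in all tumors with no difference between groups past the threshold (log2 change -0.033, adjusted p = 0.906). Libraries were stranded. The study states default parameters for mapping and counting and names no strand setting, so the counting may not have used strand.

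The promoters of Ephb2, Ephb4 and Ephb6 are shown because the levels of these 3 EphB receptors are set against each other below. Each line gives 200 bases upstream of the start site from RefSeq (GRCm38.p6), ending 50 bases before it and read 5′ to 3′ along the gene's own strand, with capitals marking the GC box, GGGCGG on either strand. The stretches are chr4:136836063-136836262 on the minus strand for Ephb2, chr5:137349859-137350058 on the plus strand for Ephb4 and chr6:41605261-41605460 on the plus strand for Ephb6.
Ephb2: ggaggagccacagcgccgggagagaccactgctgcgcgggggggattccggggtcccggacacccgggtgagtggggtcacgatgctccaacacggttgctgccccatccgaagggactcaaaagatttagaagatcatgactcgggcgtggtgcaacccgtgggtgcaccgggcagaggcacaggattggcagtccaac
Ephb4: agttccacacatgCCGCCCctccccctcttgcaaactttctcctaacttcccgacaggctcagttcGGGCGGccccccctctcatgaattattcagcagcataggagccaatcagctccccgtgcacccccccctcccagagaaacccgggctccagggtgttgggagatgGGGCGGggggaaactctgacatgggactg
Ephb6: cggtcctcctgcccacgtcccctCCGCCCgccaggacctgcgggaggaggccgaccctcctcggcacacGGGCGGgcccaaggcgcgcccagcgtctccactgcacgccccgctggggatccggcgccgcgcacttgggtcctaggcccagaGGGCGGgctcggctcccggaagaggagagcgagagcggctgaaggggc
In the whole windows of 300 bases, from 250 before to 50 after the start, Ephb2 held 0 GC boxes, Ephb4 held 4 and Ephb6 held 5, while 35.7% of all 32851 promoter windows and 19 of 24 windows of the family held at least 1. The windows were rich in G and C, at 68.7%, 64.7% and 76.3%, against a median of 52.7% over all windows. The 7 letters CTTTGAT, a core to which TCF/LEF factors of the Wnt pathway bind, were found on neither strand in any of the 24 windows of 21 family genes, and in 3.73% of all windows. These are matches of letters only, and enhancers further away were not searched.

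The question was whether Eph receptors and ephrins changed when tumor epithelium could no longer secrete Wnt ligands. Among the 9 genes, 1 passed an adjusted p of 0.05 and 8 did not. Over all 16757 genes tested, 10.9% passed, so that 1 of 9 is close to the background. That gene was Ephb4, which was lower in Villin-WlscKO tumors, as were 4.75% of all genes, and 0 of 9 were higher, against 6.12% of all genes. The median log2 change of the 9 was 0.011 and that of all genes 0.0073. Of the 4 further family genes 1 passed, Ephb6, again lower. The plot of log2 changes gives all 13 genes.

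**Figure D1:**
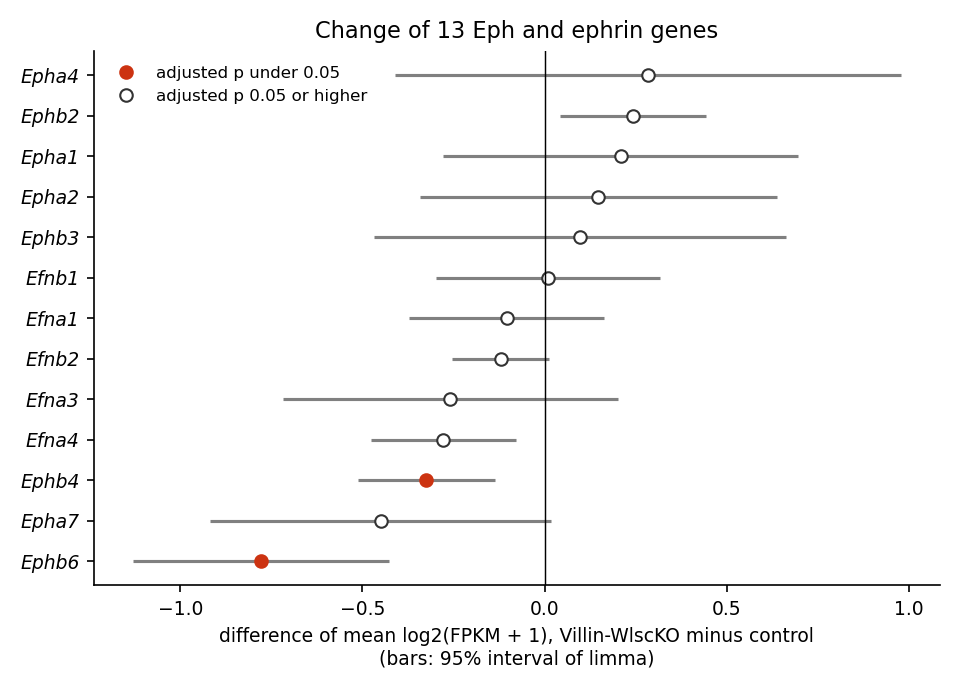
Change in mean log2(FPKM + 1) from control to Villin-WlscKO tumors for 13 Eph and ephrin genes (x axis, log2 units), with the 95% interval of limma as bars and filled points for an adjusted p under 0.05. Ephb4 and Ephb6 are the filled points, both below 0, and the intervals of Ephb2 and Efna4 also leave 0 out although their adjusted p lay above 0.05.

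Ephb4, a receptor of ephrin-B2, was among the most abundant receptors of the control tumors. Its FPKM was 50.1, 60.3, 61.9, 51.6 and 49.5 in control tumors 1 to 5 and 44.9, 48.4, 39.6, 42.1 and 41.7 in Villin-WlscKO tumors 1 to 5. Every Villin-WlscKO tumor lay below the lowest control tumor, a separation of the groups that 10.1% of all genes showed. The mean fell from 54.7 ± 5.93 to 43.4 ± 3.40 (SD, n = 5 each), a log2 change of -0.32 with a standard error of 0.085 and an adjusted p of 0.0348 (95% interval -0.51 to -0.14). The direction was kept in 22 of 22 other fits and the call in 12, with changes between -0.38 and -0.22. The call was lost without control tumor 2 (adjusted p = 0.0858), 3 (0.0611) or 4 (0.0571), without Villin-WlscKO tumor 1 (0.0536), 3 (0.0847), 4 (0.0703) or 5 (0.0744), and without both squamous keratin tumors (0.0784). Tumors scaled to the same FPKM sum gave -0.22 (adjusted p = 0.248), and the replicate block an adjusted p of 0.0588. Of 12 endothelial genes 0 passed, and their sum ranged from 39.8 to 86.4 FPKM in control and from 37.7 to 93.1 in Villin-WlscKO tumors. The part of vessels in the Ephb4 values was not tested.

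Ephb2, the Wnt-dependent receptor of the crypt base, did not pass. It was at 22.0, 24.8, 27.6, 19.6 and 22.7 FPKM in control tumors 1 to 5 and at 28.8, 28.8, 26.9, 25.2 and 28.7 in Villin-WlscKO tumors 1 to 5. The groups overlapped through control tumor 3, and 3 of 5 Villin-WlscKO tumors lay above every control tumor. Means were 23.3 ± 3.03 and 27.7 ± 1.63 (SD, n = 5 each), and the log2 difference of 0.24 (standard error 0.091, 95% interval 0.042 to 0.44) had an unadjusted p of 0.0223 and an adjusted p of 0.119. Without control tumor 3 the adjusted p was 0.0408 at a difference of 0.30. None of the 5 Villin-WlscKO tumors lay below the lowest control tumor.

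Other genes of the Wnt pathway did fall in the same tumors. Of 20 Wnt target and crypt base genes 6 were lower (Axin2, Tcf7, Znrf3, Sp5, Notum and Apcdd1) and 1 was higher (Slc12a2), against 4.75% and 6.12% of all genes, with a median log2 change of -0.41. Rnf43 and Nkd1, which count among the 20, failed the same match of control values as Ephb3, so their rows are doubtful too. Axin2, a feedback inhibitor of the pathway, changed by -0.71 (adjusted p = 0.00121), Tcf7, a TCF transcription factor, by -1.09 (adjusted p = 0.00156), and Apcdd1, a membrane inhibitor of Wnt signalling, by -1.92 (adjusted p = 0.00269). Slc12a2, a chloride cotransporter of crypt cells, rose by 0.77 (adjusted p = 0.00389). Lgr5, the stem cell receptor of R-spondins, had a value of 0.71 that did not pass (adjusted p = 0.239). Among 13 genes of differentiated epithelium, where ephrin-B ligands are known to reside, 3 were higher and 0 lower, among them the goblet cell mucin Muc2 (means of 109 and 441 FPKM, adjusted p = 0.00470) and the surface keratin Krt20 (176 and 327 FPKM, adjusted p = 0.0156), and the median was 1.05. Of all genes 6.12% were higher, and without both squamous keratin tumors 2 of the 13 were. The calls of Tcf7, Apcdd1, Slc12a2, Muc2 and Krt20 held in 22 of 22 other fits.

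Ephb3, the partner of EphB2 in crypt cells, was low in all tumors, at 0.464, 0.953, 0.809, 2.74 and 0.510 FPKM in control tumors 1 to 5 and at 0.553, 0.974, 1.55, 1.18 and 1.40 in Villin-WlscKO tumors 1 to 5. Control tumor 4 was far above the other control tumors, and its value was the highest of all. The groups overlapped, with a log2 difference of 0.098 and a 95% interval from -0.47 to 0.66 (adjusted p = 0.856). An Ephb3 locus stands in the study's list of genes down or up after the block of epithelial Wnt secretion. This row did not match the control value of that locus. With the doubt about its row, these values say little about the gene, and neither a change nor its absence can be read from them.

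**Figure D2:**
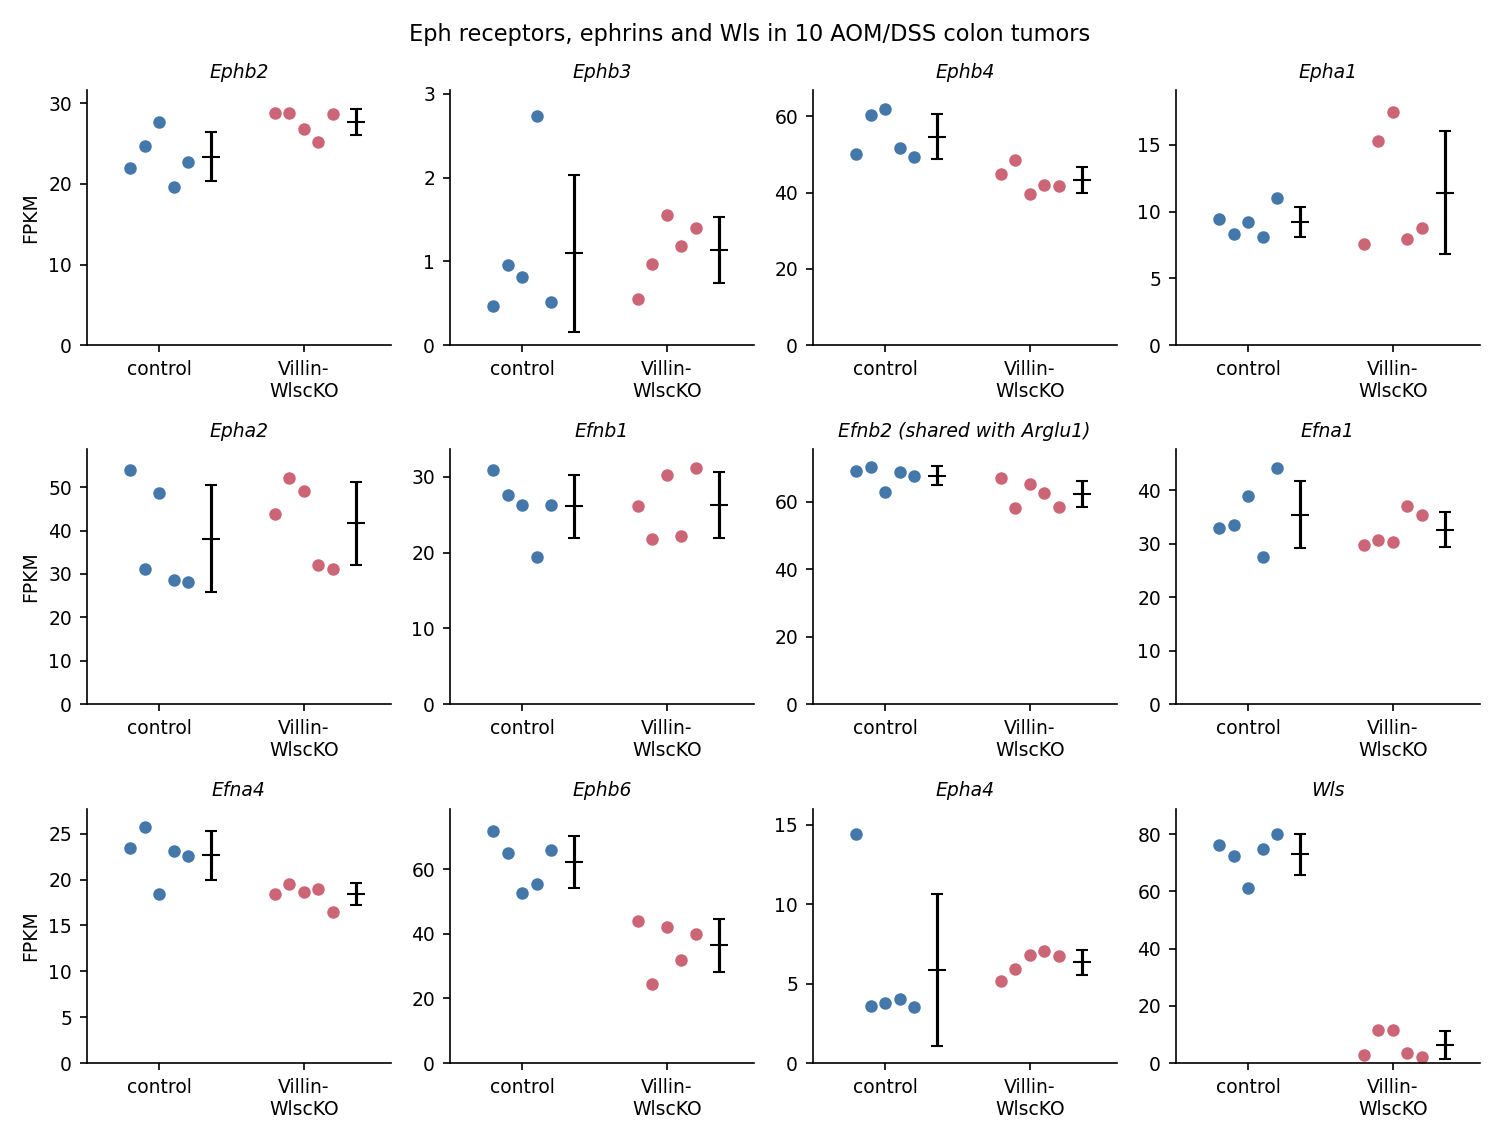
FPKM (y axis, from 0, a scale of its own in each panel) of the 9 Eph and ephrin genes, of Ephb6 and Epha4 and of the deleted gene Wls in each tumor. Points are tumors 1 to 5 from left to right in each group, the short horizontal line is the mean and the bar 1 SD on either side (n = 5), and Ephb4, Ephb6 and Wls are the panels whose groups do not overlap.

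Ephb6, a receptor whose kinase domain has lost its activity, passed, and it was lower in Villin-WlscKO tumors. It was at 71.9, 64.9, 52.7, 55.5 and 66.0 FPKM in control tumors 1 to 5 and at 44.0, 24.3, 41.9, 31.8 and 39.8 in Villin-WlscKO tumors 1 to 5. The highest Villin-WlscKO tumor was below the lowest control tumor. The means of 62.2 ± 7.93 and 36.4 ± 8.16 (SD, n = 5 each) stood in a ratio of 0.585, and the log2 change was -0.78 (standard error 0.16, 95% interval -1.13 to -0.43, adjusted p = 0.0118). The call held in 22 of 22 other fits, with changes between -0.85 and -0.65 and adjusted p between 0.00758 and 0.0333. Without both squamous keratin tumors the change was -0.68 (adjusted p = 0.0226).

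Neither of the EphA receptors among the 9 genes passed. Epha1 was at 9.46, 8.34, 9.23, 8.12 and 11.0 FPKM in control tumors 1 to 5 and at 7.58, 15.3, 17.4, 7.96 and 8.77 in Villin-WlscKO tumors 1 to 5. Tumors 2 and 3 of the Villin-WlscKO group were the high ones, and they were also those with squamous keratins, in which the 7 genes of the stratified squamous list summed to 1015 and 1328 FPKM against between 13.4 and 215 in the other 8. The other 3 Villin-WlscKO tumors lay between 7.58 and 8.77, so that the Epha1 difference of 0.21 (standard error 0.22, adjusted p = 0.608) turned to -0.16 without that pair. The part of squamous cells in the Epha1 values was not tested.

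Epha2, the receptor of ephrin-A1 in many epithelia, was between 28.1 and 54.0 FPKM in control and between 31.1 and 52.1 in Villin-WlscKO tumors, with means of 38.1 ± 12.3 and 41.6 ± 9.61 (SD, n = 5 each). Both groups were spread over the same range. The squamous keratin tumors, at 52.1 and 49.1, were the highest of the Villin-WlscKO group, whose others were at 43.7, 32.1 and 31.1. Control tumor 1, at 54.0, was higher, and it had the highest squamous sum outside that pair, 215 FPKM. The part of squamous cells in the Epha2 values was not tested. The log2 difference was 0.15 (95% interval -0.34 to 0.64, adjusted p = 0.734), and -0.055 without that pair. Epha4, which binds ligands of both classes, was at 14.4, 3.59, 3.78, 4.06 and 3.50 FPKM in control tumors 1 to 5 and between 5.14 and 7.05 in Villin-WlscKO tumors. Control tumor 1 alone made the groups overlap: with it the log2 difference was 0.28 (adjusted p = 0.626), and without it 0.63 (adjusted p = 0.00708). Control tumor 1, with its squamous sum of 215 FPKM, had Krt14 at 113 but Krt5 at 0.137. Villin-WlscKO tumors 2 and 3, with sums of 1015 and 1328, had Epha4 at 5.93 and 6.81 FPKM. In Villin-WlscKO tumor 4, with a sum of 25.7, Epha4 was at 7.05. The part of squamous cells in the Epha4 values was not tested. Epha7 was below 2 FPKM in every tumor, with a highest value of 1.78. Its log2 difference of -0.45 (adjusted p = 0.213) was -1.16 with a pseudocount of 0.1 in place of 1 (adjusted p = 0.181), and its means stood in a ratio of 0.332.

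**Figure D3:**
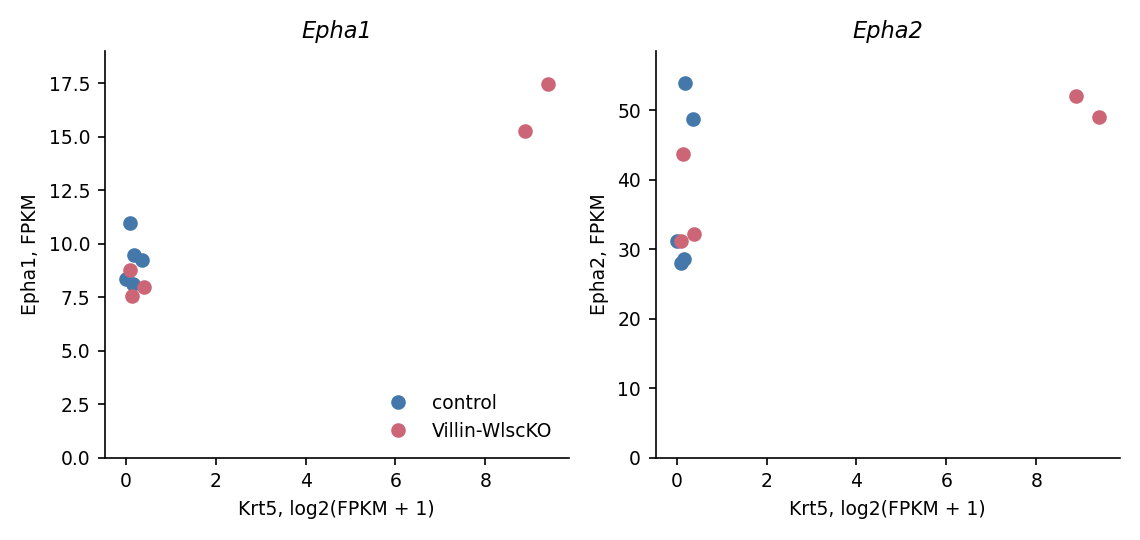
FPKM of Epha1 (left) and Epha2 (right) against log2(FPKM + 1) of Krt5, a keratin of stratified squamous epithelium, with 1 point for each of the 10 tumors. Villin-WlscKO tumors 2 and 3 lie apart on the x axis and hold the highest Epha1 values, 15.3 and 17.4 FPKM. Their Epha2 values are the highest of the Villin-WlscKO group but lie within the range of the control tumors.

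Of the ligands 0 of 4 members passed. Efnb1, the ephrin-B1 gene and the ligand of EphB2 and EphB3, did not pass. It was at 30.9, 27.6, 26.3, 19.4 and 26.3 FPKM in control tumors 1 to 5 and at 26.2, 21.8, 30.2, 22.2 and 31.1 in Villin-WlscKO tumors 1 to 5. The groups covered nearly the same range, with means of 26.1 ± 4.19 and 26.3 ± 4.35 (SD, n = 5 each). The log2 difference of 0.011 had a 95% interval from -0.30 to 0.32 (adjusted p = 0.977), so that changes within that interval could not be told from none with these tumors. The sign of so small a value turned in some other fits. The row shared by Efnb2 and Arglu1 lay between 63.0 and 70.2 FPKM in control and between 58.1 and 67.0 in Villin-WlscKO tumors, a log2 difference of -0.12 (95% interval -0.25 to 0.014, adjusted p = 0.244).

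Efna4, which encodes ephrin-A4, came nearest to the threshold among the ligands. It was at 23.5, 25.7, 18.4, 23.1 and 22.6 FPKM in control tumors 1 to 5 and at 18.4, 19.6, 18.7, 19.0 and 16.5 in Villin-WlscKO tumors 1 to 5. Control tumor 3 lay among the Villin-WlscKO tumors, and the other 4 control tumors were above all of them. The log2 difference of -0.28 (standard error 0.090, 95% interval -0.48 to -0.080) had an unadjusted p of 0.0107 and an adjusted p of 0.0766, and without control tumor 3 it was -0.35 with an adjusted p of 0.0157. Control tumor 3 was thus the tumor without which both Efna4 and Ephb2 passed, being the lowest control for the one and the highest for the other. Efna1, the ephrin-A1 gene on the same stretch of chromosome 3, ranged from 27.6 to 44.1 FPKM in control and from 29.7 to 37.0 in Villin-WlscKO tumors, with the latter inside the control range (log2 difference -0.10, 95% interval -0.37 to 0.16, adjusted p = 0.649). Efna3, between the pair, was at most 2.32 FPKM (log2 difference -0.26, adjusted p = 0.484).

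The order of levels is given by the median FPKM of the control tumors. The Efnb2 row (68.9), Ephb6 (64.9) and Ephb4 (51.6) came first, and neighbours among these overlapped in range. Efna1 (33.5), Epha2 (31.1), Efnb1 (26.3), Efna4 (23.1) and Ephb2 (22.7) followed, again with each overlapping its neighbour, while Ephb4 and Efna1 did not overlap. Epha1 (9.23) lay below all tumors' values of Ephb2, and overlapped Epha4 (3.78) through control tumor 1 only. Efna3 (1.78), Ephb3 (0.809) and Epha7 (0.499) were last, each overlapping its neighbour, and Epha4 and Efna3 did not overlap. In Villin-WlscKO tumors the first receptors were Epha2 (43.7), Ephb4 (42.1) and Ephb6 (39.8), all overlapping, and Ephb2 (28.7) stood beside Efnb1 (26.2), which it overlapped, and above every value of Efna4 (18.7). Ephb6 exceeded Ephb4 in 4 of 5 control tumors and in 1 of 5 Villin-WlscKO tumors.

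Levels of receptors and ligands were also set against each other as ratios within a tumor. These ratios, which do not depend on the scaling between tumors, were chosen after the values had been seen and carry no test. The ratio of Ephb4 to Ephb2 was between 2.18 and 2.64 in control tumors (median 2.28) and between 1.45 and 1.68 in Villin-WlscKO tumors (median 1.56). The ratio of Ephb6 to Ephb2 was between 1.91 and 3.27 (median 2.84) and between 0.844 and 1.56 (median 1.39), and Villin-WlscKO tumor 2 was the tumor in which Ephb6 was below Ephb2. Neither pair of ranges overlapped. This adds no support of its own, since Ephb4 and Ephb6 already separated the groups and Ephb2 leaned the other way. The ligand to receptor ratio of Efnb1 to Ephb2 did overlap, at between 0.952 and 1.40 in control and between 0.755 and 1.12 in Villin-WlscKO tumors. Efna1 to Epha2 overlapped as well, between 0.610 and 1.57 and between 0.587 and 1.15.

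**Figure D4:**
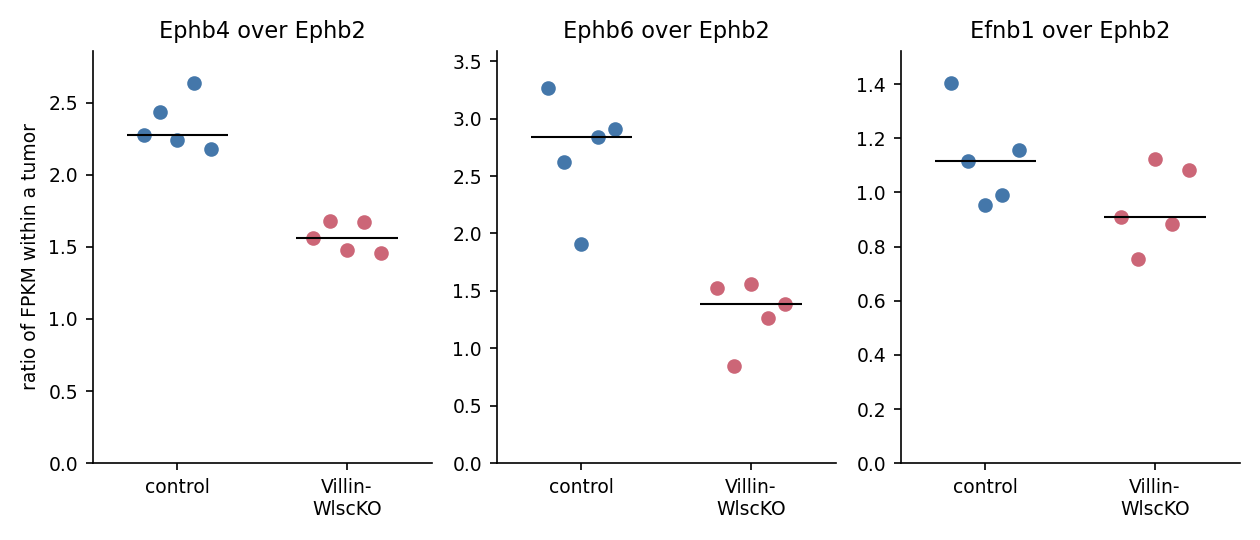
Ratios of FPKM within a tumor (y axis, from 0, no unit) for Ephb4 to Ephb2, Ephb6 to Ephb2 and Efnb1 to Ephb2, with 1 point per tumor and a line at the group median. The first and second ratios separate the groups, at medians of 2.28 and 1.56 and of 2.84 and 1.39, and the third overlaps. The ratios were chosen after the values had been seen.

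The FPKM of the 8 receptors added up to between 171 and 224 in control tumors and between 148 and 184 in Villin-WlscKO tumors, which overlapped. Ephb2 made up 9.82% to 13.5% of this sum in control and 14.6% to 18.1% in Villin-WlscKO tumors, and Ephb6 25.7% to 36.2% and 13.8% to 25.2%. Ephb4, Ephb6 and Epha2 together were 78.5% to 80.5% of the sum in control tumors and 70.8% to 75.9% in Villin-WlscKO tumors. The share of Ephb4 alone overlapped (22.4% to 31.0% and 21.6% to 28.5%), as did that of Epha2 (15.4% to 24.1% and 19.6% to 29.5%). The shares restate the same values and carry no test. The ligands without the Efnb2 row summed to between 71.9 and 93.9 FPKM in control and between 73.5 and 83.5 in Villin-WlscKO tumors.

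**Figure D5:**
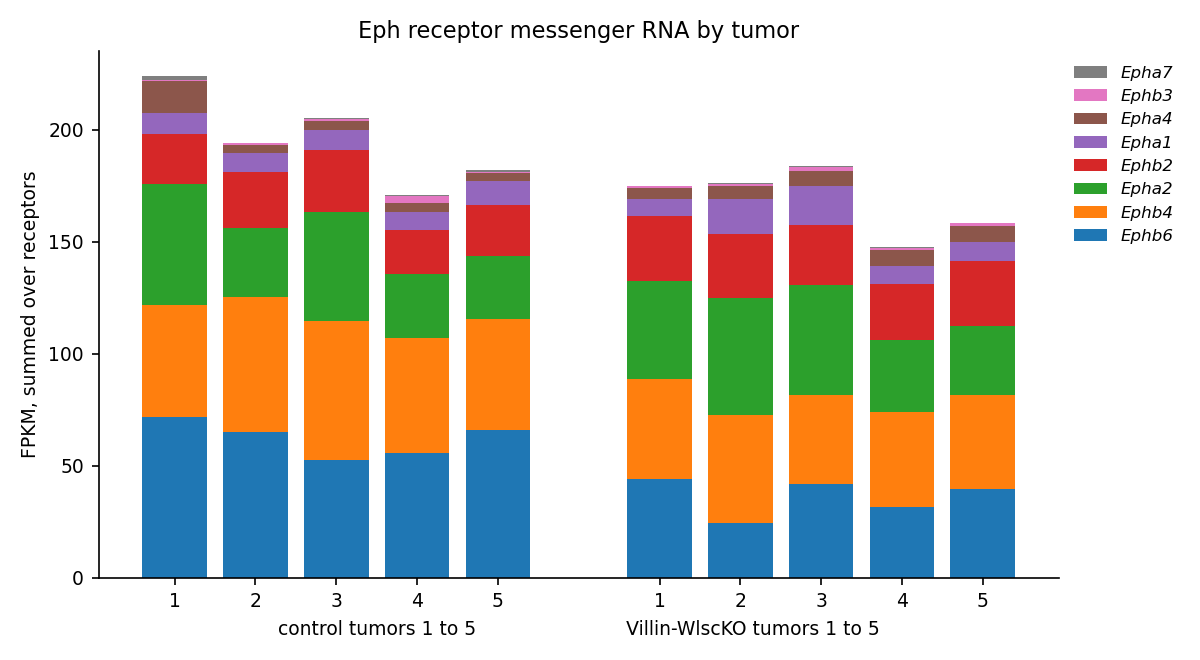
FPKM of the 8 Eph receptor genes of the table stacked for each of the 10 tumors (y axis, summed FPKM, from 0). The blue part, Ephb6, is smaller in Villin-WlscKO tumors, and the red part, Ephb2, is a larger share of a bar that ranges from 171 to 224 in control and from 148 to 184 in Villin-WlscKO tumors.

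Genes that carry the signal inside the cell were read from a list of signalling partners of Eph receptors and ephrins. Of the 31 tested, 1 was higher and 1 lower, where 6.12% and 4.75% of all genes were, and the median log2 change was -0.021. The count was 0 higher and 3 lower without both squamous keratin tumors, 2 higher and 0 lower with tumors scaled to the same FPKM sum or with the replicate block, and 0 higher and 1 lower with quantile normalization. Rac1, a GTPase of the actin cytoskeleton, rose from 334 ± 18.8 to 403 ± 24.9 FPKM (SD, n = 5 each), with every Villin-WlscKO tumor above every control tumor (log2 change 0.27, adjusted p = 0.0256). Its call held in 15 of 22 other fits and was lost without control tumor 2, 4 or 5 or Villin-WlscKO tumor 3 or 5, with adjusted p of up to 0.0671. Quantile normalization left a change of 0.070 (adjusted p = 0.380), and without both squamous keratin tumors it was 0.25 (adjusted p = 0.0954). Grb7, an adaptor of receptor tyrosine kinases, fell from 82.7 ± 7.33 to 60.8 ± 10.9 FPKM (SD, n = 5 each), with the groups again apart (log2 change -0.45, adjusted p = 0.0435). Its call held in 10 of 22 other fits, and when 1 tumor was left out it held only without Villin-WlscKO tumor 4 or 5, with adjusted p between 0.0339 and 0.0998 over the 10 tumors. Without both squamous keratin tumors the change was -0.32 (adjusted p = 0.114), and with the same FPKM sum -0.35 (adjusted p = 0.186). The call was also lost without a variance trend (0.0538) and with the replicate block (0.0609). Grip1 was not analysed here.

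Marker genes of other cells were read by list, beside the 6.12% of all genes that were higher and the 4.75% that were lower. Smooth muscle (7 genes), macrophage (7), neutrophil (5) and stratified squamous genes (7) had 0 higher and 0 lower, and among 8 fibroblast genes 1 was higher, Fbln1. Median log2 changes were 0.34 for smooth muscle, -0.020 for macrophage, 0.95 for neutrophil and 0.91 for squamous genes. The neutrophil genes summed to between 135 and 670 FPKM in control and between 430 and 1105 in Villin-WlscKO tumors. Of 6 T cell genes 4 were higher (Cd3d, Cd3e, Cd3g and Cd8a), their list summing to between 9.87 and 15.7 FPKM in control and between 14.9 and 24.9 in Villin-WlscKO tumors, and of 5 B and plasma cell genes 1 was higher, Mzb1. The part of leukocytes in the values of Ephb4, Ephb6, Rac1 and Grb7 was not tested.

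Finally, the genes most like 3 of the members were sought by Pearson's r of log2(FPKM + 1) over the 10 tumors after each group's mean had been removed, among up to 9787 genes with a mean of at least 5 FPKM. For Ephb2 they were Sart1 (r = 0.948), Mafk (0.942) and Fdxacb1 (0.939). For Efnb1 they were Noxo1 (0.974), Themis3 (0.973) and Casp1 (0.970), and for the Ephb3 row 2810025M15Rik (0.888), Psmb6 (0.841) and Col16a1 (0.836). These values describe 10 tumors that share their scaling, and the highest of so many are large by selection.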

How the data were processed

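Macrodissected tumors had been frozen, and messenger RNA libraries were made from total RNA with a stranded kit. Per the labels and the methods, the authors used FastQC for a quality check of the reads, aligned them with TopHat2 2.1.1 to the GRCm38.p5 genome, and assembled and quantified transcripts with Cufflinks 2.2.1 and Cuffdiff. The deposited values are FPKM in a single table of 16875 gene names, with 10 columns of which 0 could not be assigned to a tumor. Read totals are not given in the sources used here, and no steps of single reads were found: among 277 genes of low value at most 6 shared a ratio. Counting error is therefore unknown, and precision rests on the 5 tumors of each group. FPKM summed to between 1265992 and 1533885 per control and between 1207683 and 1341494 per Villin-WlscKO tumor.

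The groups, read from the genotype labels, were compared on log2(FPKM + 1) with limma 3.58.1 (R 4.3.3), taking a mean of at least 0.5 FPKM, a variance trend, no covariate and Benjamini-Hochberg adjustment over all 16757 genes. This scale understates changes of low genes. The script was tested on simulated data. Summaries and figures used Python 3.11.15, pandas 2.3.3, numpy 2.4.6 and matplotlib 3.10.9. Alternatives were other pseudocounts, filters, scalings, variance models and a replicate block, leaving out each tumor or both tumors with squamous keratins, and counting identical names once.

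The 9 genes, the gene lists and the tests were chosen with earlier results of these data known. Named beside the 9 are the other family genes, Wls, up to 2 rising and 2 falling genes with the largest change from the partner, Wnt and differentiation lists, the first gene of cell type lists, Xist, Krt5 and the 3 genes most like Ephb2, Ephb3 and Efnb1. Axin2, Lgr5, Zan, Zyx, Krt14, Cd3e, Cd3g, Cd8a, Fbln1, Mzb1 and the remaining Wnt targets named were added after their values were seen, as were the ratios, the promoters and their motifs. Of the cell type lists' first genes, Pecam1 was between 4.89 and 17.7 FPKM over the 10 tumors, Col1a1 between 12.3 and 54.8, Acta2 between 30.5 and 60.1, Adgre1 between 1.84 and 5.72, Cd3d between 0.126 and 3.11, Cd79a between 0.0994 and 1.60 and S100a8 between 55.1 and 487. Promoter sequences are those of RefSeq on GRCm38.p6, and gene positions those of GENCODE M21 on GRCm38. Protein sequences were not used here.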

Additional observations from a re-analysis of the deposited data

Results flagged for a closer look

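Of 42 groups of 5 tumors examined for a single value far from the others (Dixon's test, 95% level), 3 held one, and chance gives about 1 in 20. The Ephb3 row was at 2.74 FPKM in control tumor 4, against 0.464 to 0.953 in the other control tumors. Epha4 was at 14.4 FPKM in control tumor 1, against 3.50 to 4.06 in the other 4. Slc12a2, from the Wnt list, was at 40.2 FPKM in control tumor 1, against 56.2 to 59.3 in the other 4.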

How the results depend on the processing

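Ephb6, Wls, Slc12a2, Apcdd1, Tcf7, Muc2 and Krt20 passed the threshold in the same direction in 22 of 22 other fits. Of the 9 genes, the number past the threshold fell from 1 to 0 when tumors were scaled to the same FPKM sum (Ephb4 change -0.22, adjusted p = 0.248), with the replicate block (adjusted p = 0.0588) and without Villin-WlscKO tumors 2 and 3 (adjusted p = 0.0784), and ranged from 0 to 2 when 1 tumor was left out. The 2 were Ephb2 and Efna4, without control tumor 3. Scaling to the same sum raised the median change of all genes to 0.10, and relative to this shift Ephb4 changed by -0.32 and Ephb2 by 0.24. Over all genes 1822 passed, 1026 higher and 796 lower, with the same sum 1395 and 417, with quantile normalization 893 and 1125, and without Villin-WlscKO tumors 2 and 3 1092 in all. Signs turned for Efnb1 (-0.029 with quantile normalization, and between -0.088 and 0.073 with 1 tumor left out), Epha1 (-0.16) and Epha2 (-0.055) without Villin-WlscKO tumors 2 and 3, and Ephb3 (between -0.0081 and 0.33 with 1 tumor left out). The cause was not tested. With a mean of at least 5 FPKM, Ephb3, Epha7 and Efna3 gave no value. Same-numbered tumors correlated in their deviations at 0.064, -0.087, 0.063, 0.10 and 0.16. Tumors of unlike number were not compared, so these values cannot settle whether replicate numbers mark pairs. With the replicate block 1627 genes passed.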
